A study of Homo sapiens with 5 samples.

Results

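The primate chromosome 19 miRNA cluster was examined in 5 transformed human blood cell lines. Its members were taken by name as every human miRNA probe, of either arm and with any suffix, alone or joined with others, named miR-498, miR-512, miR-515 to miR-527 or miR-1283, together with the probes for miR-371, miR-372 and miR-373, whose genes lie beside the cluster. The rule used no measured value and gave 42 of the 654 human probes, 38 for the cluster proper and 4 for miR-371-3p, miR-371-5p, miR-372 and miR-373. Total RNA, 100 ng per line, was profiled with nCounter probes, which are read by counting color-coded reporters without amplification. The lines were Meg-01 (megakaryoblastic), Jurkat (T-lymphoblastic), Raji (B-lymphoblastic, carrying Epstein-Barr virus), U937 (monocytic) and K562 (erythroleukemic), all untreated as far as the labels say. With 1 sample per line, differences between lines have no replicate check, and none was tested.

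The cluster is found in primates, is imprinted, and is transcribed from the paternal allele mainly in placental trophoblast. Its many near-copies give miRNAs of related sequence, some of which share a seed, the bases near the 5′ end that pair with target messenger RNAs. The genes of miR-371, miR-372 and miR-373 are best known from embryonic stem cells and germ cell tumors. Of their products, miR-372-3p and miR-373-3p carry the same seed as the miR-302 family of pluripotent cells. In the RefSeq annotation of GRCh38.p14 the 45 miRNA genes of the cluster that the naming rule covers lie on the plus strand at chr19:53666679-53762430, from MIR512-1 to MIR519A2, over 95.8 kb. The 4 genes from MIR371A to MIR373 follow 25.2 kb further on, at chr19:53787675-53788773.

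Mature sequences were taken from RefSeq with the same build, and 40 of the 42 probes had at least 1. No sequence is printed for miR-518f-3p, miR-522-3p and miR-527. In the lines that follow, read 5′ to 3′, capitals mark the seed, bases 2 to 8. The first set holds the members above background in at least 1 line, since the detection results turn on them. The joint probe for miR-526a, miR-518d-5p and miR-520c-5p reads 1 sequence common to the 3, shown once, and the joint probe for miR-517c and miR-519a reads 2 different ones.
miR-1283: uCUACAAAggaaagcgcuuucu
miR-526a-5p: cUCUAGAGggaagcacuuucug
miR-519e-3p: aAGUGCCUccuuuuagaguguu
miR-520g-3p: aCAAAGUGcuucccuuuagagugu
miR-525-3p: gAAGGCGCuucccuuuagagcg
miR-517c-3p: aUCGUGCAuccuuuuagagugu
miR-519a-3p: aAAGUGCAuccuuuuagagugu
miR-520a-3p: aAAGUGCUucccuuuggacugu
miR-515-3p: gAGUGCCUucuuuuggagcguu
miR-519b-3p: aAAGUGCAuccuuuuagagguu

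The second set shows members that share a seed with the miR-302 or the miR-17 family, with relatives from outside the cluster, and the miR-371a pair, so that levels can be set beside the seed.
miR-520b-3p: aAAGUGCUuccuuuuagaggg
miR-520c-3p: aAAGUGCUuccuuuuagagggu
miR-520d-3p: aAAGUGCUucucuuuggugggu
miR-520e-3p: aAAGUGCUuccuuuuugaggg
miR-372-3p: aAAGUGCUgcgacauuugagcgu
miR-373-3p: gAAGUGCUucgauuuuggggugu
miR-302a-3p: uAAGUGCUuccauguuuugguga
miR-302c-3p: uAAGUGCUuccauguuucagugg
miR-371a-3p: aAGUGCCGccaucuuuugagugu
miR-371a-5p: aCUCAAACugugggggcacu
miR-519d-3p: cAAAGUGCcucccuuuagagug
miR-17-5p: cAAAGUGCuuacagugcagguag
miR-20a-5p: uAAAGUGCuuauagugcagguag
miR-93-5p: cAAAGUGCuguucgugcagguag

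The third set shows members that differ by few bases from one of the first set and were above background in no line.
miR-526b-5p: cUCUUGAGggaagcacuuucugu
miR-524-3p: gAAGGCGCuucccuuuggagu
miR-519c-3p: aAAGUGCAucuuuuuagaggau
miR-520f-3p: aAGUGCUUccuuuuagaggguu
miR-517b-3p: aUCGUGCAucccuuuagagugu
miR-520d-5p: cUACAAAGggaagcccuuuc

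Human probes summed to between 66892 counts in Raji and 130048 in Jurkat. The 8 negative controls, probes with no target in the sample, averaged 20.2 to 23.1 counts, and a probe was called above background where its raw count passed the mean plus 2 SD of these controls in its own line. That threshold was 42.1 counts in Meg-01 and 35.02 in Jurkat, with 45.9 in Raji, 34.9 in U937 and 34.6 in K562. One negative control was the highest in all 5 lines, at 30 to 47 counts. The blood cell miRNA miR-142-3p gave 7436 to 32907 counts. miR-223, a myeloid marker, gave 62 counts in Raji, 732 in Jurkat and from 1684 up to 3269 in Meg-01, U937 and K562, miR-150, a lymphoid marker, gave 1030 counts in Jurkat and 13 to 21 elsewhere, Raji included, and the erythroid miR-144 gave 981 in Meg-01 and 216 in K562. Of 34 probes for Epstein-Barr virus miRNAs, 8 passed 100 counts in Raji and 3 or 4 in each other line. Their highest count was 329 in Raji, 346 in Meg-01, 338 in Jurkat, 249 in U937 and 316 in K562. No placental sample was part of the series, so the placental label of the cluster could not be checked in these data.

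Most of the cluster was not above background. Of the 42 probes, 32 (76.2%) passed the threshold in no line, whereas 346 of all 654 human probes (52.9%) did so. With the deposited signal above 0 as the call these shares were 7.14% and 8.41%, which turns their order, and with the mean of the negative controls or a raw minimum of 20 as threshold 7 members (16.7%) and 4 members (9.52%) passed in no line, against 12.5% and 8.26% of all human probes. Among the 46 probes for miRNAs of viruses other than Epstein-Barr virus, which no line is labelled as carrying, 34 (73.9%) passed it in no line. In all, 4 members (9.52%) passed it in every line, against 13.5% of all human probes and 1 of the 46 virus probes, whose mean was 58.8 counts. The 34 Epstein-Barr virus probes are left out of these shares. In each line other than Raji, 3 or 4 of them passed 100 counts, with highest counts of 249 to 346. No member had more than 111 counts in any line. The cause of these virus probe counts was not tested. In bulk RNA a low level in every cell and a higher level in few cells cannot be told apart.

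By line, 6 members were above background in Meg-01 (14.3%), 7 in Jurkat (16.7%), 4 in Raji (9.52%) and 8 each in U937 and K562 (19.05%). The share of all human probes was larger in each line, at 27.2% in Meg-01 and 35% in Jurkat, with 17% in Raji, 28.3% in U937 and 27.5% in K562. Virus probes passed in a smaller share than the members in Meg-01 (6.52%), Raji (6.52%), U937 (8.70%) and K562 (8.70%) and in a larger one in Jurkat (21.7%). Raji had the highest threshold and the fewest counts, and Jurkat the most counts. With the deposited background-subtracted signal above 0 as the call, the direction turned in Jurkat, with 90.5% of the members and 87.2% of all human probes, and stayed in the other lines. The number subtracted there in Jurkat was 16.25, against a mean of 22.75 for its negative controls, and with that mean as threshold the shares were 57.1% and 71.3%.

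**Figure D1:**
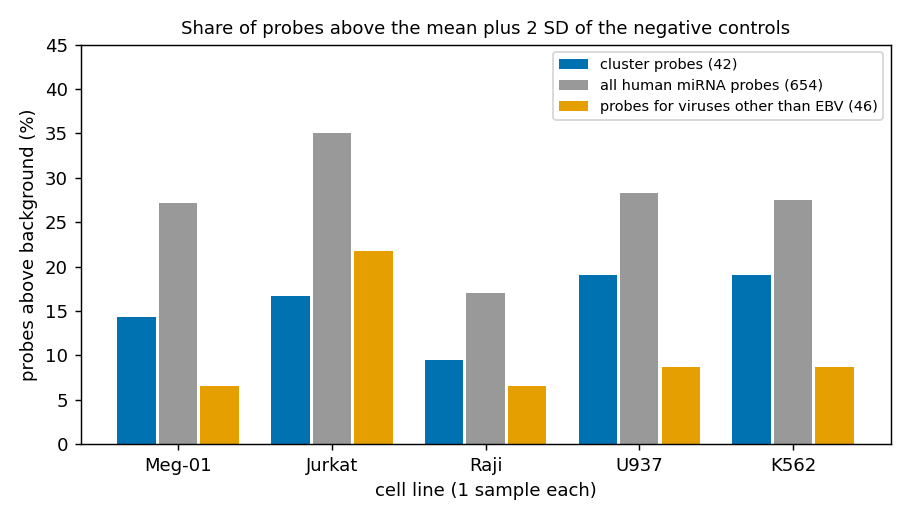
Percentage of probes above the background threshold (y axis) in each cell line (x axis, 1 sample each) for the 42 cluster probes, all 654 human probes and 46 probes for viruses other than Epstein-Barr virus (EBV). The cluster bar lies below the bar of all human probes in every line, for example 14.3% against 27.2% in Meg-01.

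A stricter count asked that the lower end of the exact 95% Poisson interval of a raw count pass the threshold. It left 3 members in Meg-01, Raji, U937 and K562 and 5 in Jurkat. All human probes passed it at 20.8% in Meg-01 and 21.9% in Jurkat, with 13.1% in Raji, 17.4% in U937 and 18.5% in K562, against 7.14% of the members in 4 of the lines and 11.9% in Jurkat. These intervals cover counting error only.

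The 3 members that passed the stricter count in all 5 lines were miR-1283, the joint probe for miR-526a, miR-518d-5p and miR-520c-5p, and miR-518f. They make up 7.14% of the members. The share of all human probes passing it in all lines was not counted, and cannot exceed the 13.1% of Raji. miR-1283, made from a pair of genes in the cluster (the first copy of the mature miRNA at chr19:53688494-53688515), had 103 raw counts in Meg-01 and 87 in Jurkat, with 111 in Raji, 77 in U937 and 92 in K562. Its neighbour in level, the joint miR-526a probe (miR-526a-5p at chr19:53706266-53706287), had 70, 74, 69, 63 and 60 counts in the same order of lines. miR-518f had 76, 65, 64, 58 and 66. In these 3 probes the highest raw count was 1.44, 1.23 and 1.31 times the lowest. For miR-1283 the counting interval of that ratio was 1.07 to 1.95, for the joint probe 0.866 to 1.76 and for miR-518f 0.919 to 1.88.

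Among the human probes miR-1283 was at rank 43 of 654 in Raji and ranks 67 to 88 in the other lines. miR-519e, whose seed is that of miR-515-3p, had 45, 54, 48, 42 and 37 raw counts in Meg-01, Jurkat, Raji, U937 and K562, and miR-520g had 43, 54, 40, 41 and 37. Jurkat gave the highest count of both and was the line in which both passed the stricter count. miR-519e was above the threshold in all lines and miR-520g in all but Raji.

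A further 5 members crossed the threshold in some lines, none of them under the stricter count. miR-525-3p had 43 raw counts in Meg-01 and 29 in Jurkat, with 29 in Raji, 37 in U937 and 36 in K562, and was above background in Meg-01, U937 and K562. The joint probe for miR-517c and miR-519a had 37, 33, 39, 39 and 24 and was above background only in U937, although Raji gave the same count against a higher threshold. miR-520a-3p had 29, 38, 26, 30 and 36 and crossed in Jurkat and K562.

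The other two members in this class were miR-515-3p and miR-519b-3p. miR-515-3p had 33, 41, 23, 35 and 26 raw counts and crossed the threshold in Jurkat and, by less than 1 count, in U937. miR-519b-3p had 36, 29, 15, 18 and 37 counts and crossed it in K562, with 1 count fewer in Meg-01 below that line's threshold.

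**Figure D2:**
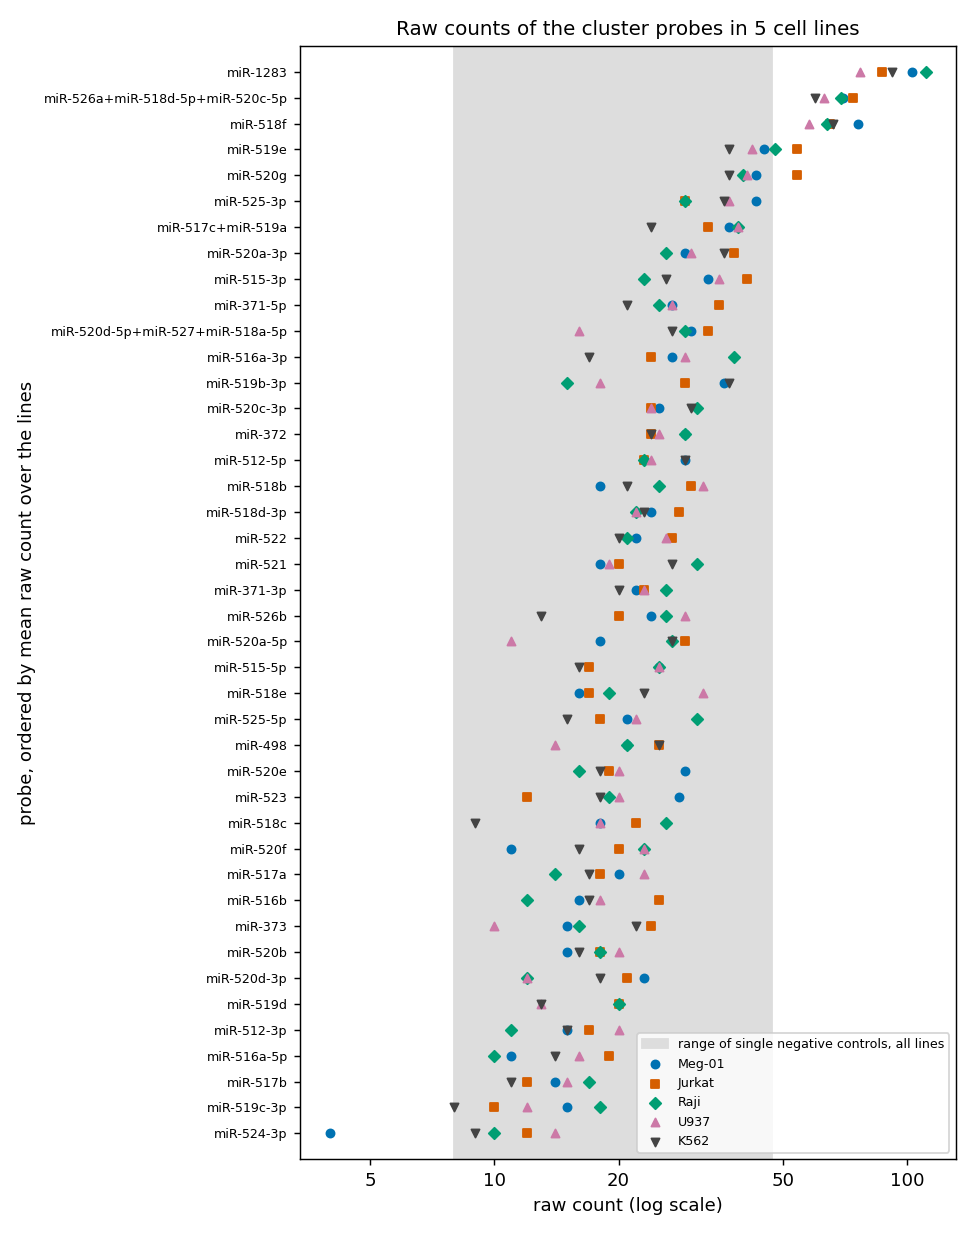
Raw count (x axis, log scale) of each of the 42 cluster probes (y axis, ordered by mean) in the 5 lines, 1 symbol per line. The grey band spans single negative controls of all lines, 8 to 47 counts, and miR-1283, the joint miR-526a probe and miR-518f lie beyond it in every line.

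The probes beside the cluster had means over the lines within the range of those of the single negative controls. miR-372 had 29 raw counts in Meg-01 and 24 in Jurkat, with 29 in Raji, 25 in U937 and 24 in K562, and miR-373 had 15, 24, 16, 10 and 22. miR-371-3p had 22, 23, 26, 23 and 20, and miR-371-5p had 27, 35, 25, 27 and 21. None of the 4 was above background in any line, and the nearest was miR-371-5p in Jurkat, just under its threshold. At 35 counts it was above every negative control of that line, of which the highest had 30. The remaining 28 members without a call, among them miR-498, both arms of miR-512 and the miR-516 probes, completed the 32, whose raw counts lay between 4 and 38 and whose means over the lines lay between 9.8 and 27. Means of the 8 single negative controls lay between 15.2 and 37.4. The tenth highest member by mean normalized count, miR-516a-3p, was one of them at 27, 24, 38, 29 and 17 raw counts.

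The median member had 23.5 raw counts in Meg-01 and 24 in Jurkat, with 24 in Raji, 23 in U937 and 21 in K562. For comparison, the median human probe had 28, 28, 27, 26 and 24, and the median virus probe 22.5, 22.5, 23.5, 20 and 19. The members' medians thus lay between those of the virus probes and all human probes in each line. Members summed to 1165 counts in Meg-01 and 1190 in Jurkat, with 1155 in Raji, 1094 in U937 and 1050 in K562, which was 1.19 to 1.36 times the sum that 42 probes would have if each lay at the average negative control. The highest sum was 1.13 times the lowest, while human totals differed 1.94-fold and positive controls, synthetic targets added at fixed amounts, 1.38-fold. The members' share of all human counts was 0.915% in Jurkat (exact binomial 95% interval 0.864% to 0.968%), 0.998% in K562, 1.06% in Meg-01, 1.16% in U937 and 1.73% in Raji (1.63% to 1.83%), the highest share falling in the line with the lowest total. With the threshold subtracted the shares were 0.139% to 0.226%, and on the deposited signal, where Raji stayed highest at 0.581%, Jurkat was next at 0.440% and K562 lowest at 0.275%. The number subtracted in that signal was 16.25 in Jurkat and 22.75 in K562, against negative control means of 22.75 and 20.25. Shares of Jurkat and K562 with their own control means subtracted were not computed.

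The ratio of variance to mean of the raw counts over the 5 lines, whose median would be about 0.839 for counting error alone, had a median of 1.08 over the 42 members, 0.853 over the 8 negative controls, 1.25 over the virus probes and 1.42 over all human probes. Among probes above background in no line the order was the other way, with 1.25 over the 32 members and 0.958 over 314 other human probes. In the 4 members above background in all lines the highest line was 1.23 to 1.46 times the lowest. The 84 other human probes above background in all lines had a median of 2.48, and 12 of them were at or below 1.46. Those 84 reach far higher counts, and among the 27 with mean counts in the range of the 4 members the median was 1.63, with 7 at or below 1.46.

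**Figure D3:**
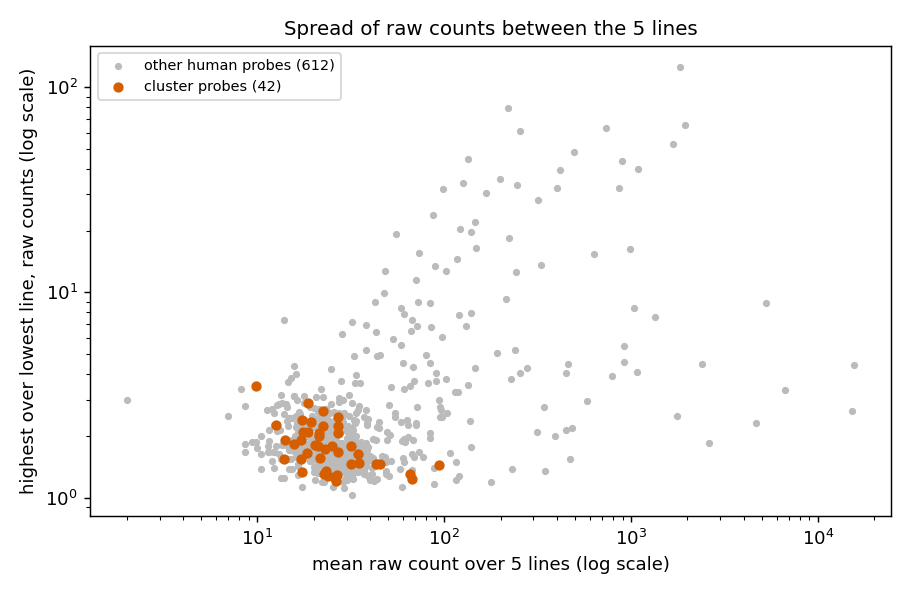
Highest over lowest raw count among the 5 lines (y axis, log scale) against mean raw count (x axis, log scale) for 42 cluster probes and 612 other human probes, 1 point per probe. Cluster probes lie at means of 9.8 to 94.0 counts, and the 4 above background in all lines have ratios of 1.23 to 1.46.

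Scaling each line to the geometric mean of the 100 miRNAs with the highest mean over the lines multiplied the counts by 0.741 in Meg-01 and 0.805 in Jurkat, with 1.58 in Raji, 1.04 in U937 and 1.22 in K562. Normalized miR-1283 was then 76.4 in Meg-01 and 70.1 in Jurkat, with 175 in Raji, 80.3 in U937 and 113 in K562. Raji was highest for 32 of the 42 members, as it was for 447 of the 654 human probes, whereas in raw counts Raji was the single highest line for 9 members and Jurkat for 13. The normalized level of miR-1283 in Raji was 1.56 times that in K562, with a counting interval of 1.17 to 2.08. That order depended on the scaling. With the housekeeping probes as reference the log2 ratio of Raji over K562 turned to -0.46, and K562 was highest for 24 members and Raji for 3, and with the positive controls U937 was highest for 27.

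No member was above background in a line with over 2-fold the normalized count of every other line. Of all human probes 46, or 7.03%, were. With housekeeping scaling 1 member met this rule, against 7.95% of all human probes, and with the threshold subtracted and lines at or below it entered at 1, 5 members (11.9%) did, against 22.8%. Among the 10 members above background anywhere, the highest line differed most from the next for miR-519b-3p, at a ratio of 1.69 for K562 over Meg-01 with a counting interval of 1.04 to 2.76. Its count in Meg-01 was below that line's threshold, so the ratio compares a called with an uncalled count. It also moved with the scaling, from 0.76 on the log2 scale to 0.04 with no normalization, 0.10 with total human counts, 0.16 with positive controls and 1.24 with housekeeping probes.

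**Figure D4:**
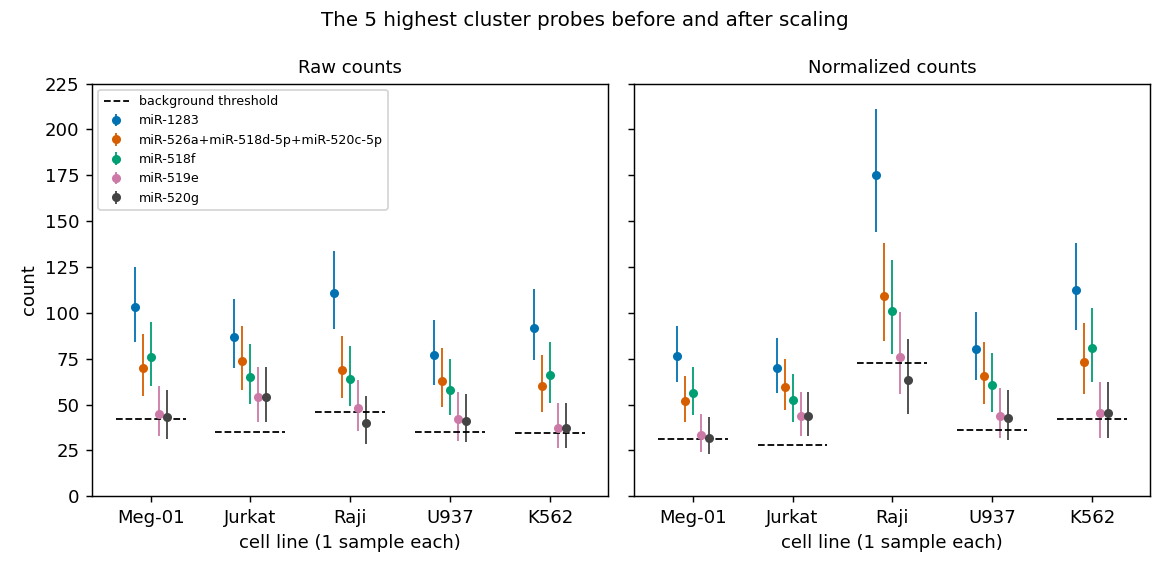
Counts (y axis) of 5 cluster probes in each line (x axis, 1 sample each) before scaling on the left and after it on the right, with exact 95% Poisson intervals as bars and each line's background threshold dashed. miR-1283 in Raji is 111 raw and 175 normalized counts, and the Raji threshold rises with it.

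Grouped by seed, the 40 probes with a sequence held 27 seeds. The seed AAGUGCU was shared by 7 members, miR-372, miR-373 and miR-520a-3p to miR-520e, whose means over the lines were 17.2 to 31.8 raw counts, and 1 of them, miR-520a-3p, was above background anywhere. Of all 42 members 10 (23.8%) were, and 52.9% of all human probes were above background in no line. The same seed in the miR-302 family gave no call for miR-302a, miR-302b and miR-302d, whereas miR-302c had 59 raw counts in Meg-01 and 85 in Jurkat, with 84 in Raji, 63 in U937 and 54 in K562, above background in each. Both miR-302a and miR-302c are printed with the second set. miR-367, from the same hairpin cluster, was not above background in any line. The probes for miR-302e and miR-302f were not in the comparison list and averaged 18.4 and 41.4 raw counts over the lines.

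The seed AAAGUGC joins miR-519d of the cluster to the miR-17 family, which is abundant in dividing blood cells. miR-519d had 20 raw counts in Meg-01, Jurkat and Raji and 13 in U937 and K562. The joint miR-20a and miR-20b probe had 5882 in Meg-01 and 6179 in Jurkat, with 3201 in Raji, 7475 in U937 and 10678 in K562, and miR-93, the lowest of these relatives by mean, had 115 to 494. Members read from the 3p arm (28 probes) had a median mean of 22.1 raw counts and those from the 5p arm (11 probes) 22.4.

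Members of nearly the same sequence did not always fall on the same side of the threshold. Each substituted, inserted or missing base was counted as 1 base change. Of the 14 pairs within 2 base changes, 1 had both probes above background in some line, 7 had a single one and 6 had neither. The 7 are given first, then 2 wider pairs. The joint miR-526a probe was above background in all lines at a mean of 67.2 raw counts, and miR-526b, 2 base changes from miR-526a-5p, was above it in no line at 22.4. miR-519e-3p and miR-520f-3p also differ by 2, and miR-519e was above background in all lines at 45.2 and miR-520f in none at 18.6. Of miR-519b-3p and miR-519c-3p, which differ by 2, miR-519b-3p was above it in K562 alone, at means of 27 and 12.6. The joint miR-517c and miR-519a probe, above background in U937 alone at a mean of 34.4, is in 3 of the pairs, with miR-517a at 18.4 and miR-517b at 13.8, each 1 change from miR-517c-3p, and with miR-520c-3p at 26.8, 2 changes from miR-519a-3p. The last of the 7, miR-519b-3p and miR-520c-3p, had means of 27 and 26.8, so that the call split a pair of nearly equal counts. Among wider pairs, miR-1283, at 94.0, and miR-520d-5p, whose joint probe averaged 27 counts with no call, differ by 4. Of miR-525-3p and miR-524-3p, which share a seed and differ by 3, miR-525-3p was above background in some lines at 34.8 and miR-524-3p in none at 9.8. The lower probe of each pair lies at background, so no fold is given between them. miR-517a-3p and miR-517b-3p are identical in sequence, and their separate probes averaged 18.4 and 13.8 counts, above background in no line. The files do not say how such probes tell near-copies apart.

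miR-519e (chr19:53679991-53680012), miR-1283, miR-518f, the joint miR-526a probe and miR-520g (chr19:53722220-53722243) lay, by their first copies, between 13.3 and 55.5 kb from the first gene, with members at the level of the negative controls between them. The second copy of miR-1283 lies at 91.6 kb, and MIR518D, one of the genes read by the joint miR-526a probe, at 68.2 kb, and the counts do not tell copies apart. miR-1323, whose gene lies in the cluster but outside the naming rule, had 27, 27, 25, 20 and 22 raw counts in Meg-01, Jurkat, Raji, U937 and K562 and no call. On the same chromosome, 1973 kb before the cluster, miR-125a-5p had 500 counts in Meg-01 and 38 in Jurkat, with 14 in Raji, 92 in U937 and 350 in K562. From the same hairpin, miR-125a-3p had 41, 33, 36, 28 and 41 and was above background in K562 alone. Beside them, let-7e was above background in all lines at 61 to 260 counts, and miR-99b in Meg-01 at 118 and K562 at 98, with 26 to 30 in the other lines.

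**Figure D5:**
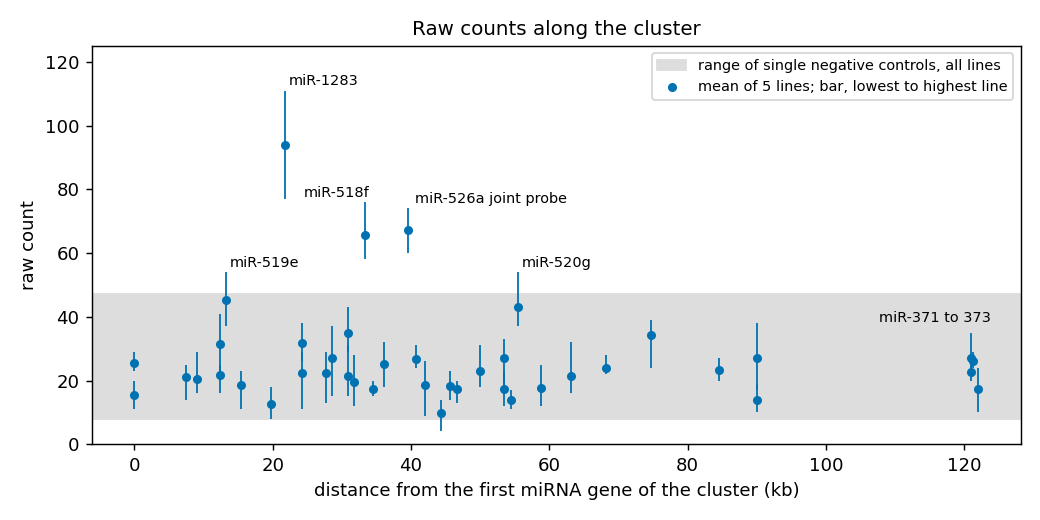
Raw count (y axis; point, mean of 5 lines; bar, lowest to highest line) of the cluster probes against distance in kb from the first miRNA gene (x axis, first copy for miRNAs with several genes). Probes beyond the grey band of single negative controls, such as miR-1283 at a mean of 94.0, have neighbours within the band.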

How the data were processed

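Total RNA of 5 lines was profiled with 1 sample each. The authors deposited instrument counts of 753 probes, not normalized, and a signal table of the human probes. In each line the deposited signal is the count less a fixed number, floored at 0, and this number matched the mean of the negative controls in Meg-01, Raji and U937 but not in Jurkat and K562. The study used versions v1 and v2 of the probe kit, and which of them served these lines is not given in the sources used here. From the raw counts, the methods' scaling and threshold of mean plus 2 SD were applied in Python 3.11.15 with pandas 2.3.3, numpy 2.4.6 and scipy 1.17.1, without the subtraction. Count intervals are exact Poisson and ratio intervals conditional binomial. At human totals of 66892 to 130048, counts near the background are imprecise. Members and comparison lists were chosen with earlier results of these data known. Every member above background in at least 1 line is named, with the 10 highest by mean normalized count and miR-371, miR-372 and miR-373. Arms absent from a probe name were taken for 12 probes from the study's naming of primary cell miRNAs and for 8 from older convention, and miR-371 probes were read as miR-371a. Calculations were tested on simulated counts. A first simulation, with all changed probes raised in 1 line, missed its criterion, with a shifted scaling factor. The simulation was changed to equal numbers raised and lowered, and the calculations were not.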

Additional observations from a re-analysis of the deposited data

How the results depend on the processing

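No paired analysis was possible because each line has 1 sample. With the mean of the negative controls as threshold, 26 members were above background in Meg-01 and 24 in Jurkat, with 21 in Raji, 24 in U937 and 22 in K562 (50% to 61.9% of members, against 61.9% to 72.9% of human probes), with 11 in all lines and 7 in none (human probes 43.3% and 12.5%). The deposited signal above 0 gave 26, 38, 21, 24 and 19 (45.2% to 90.5%, against 55.8% to 87.2%), with 10 in all lines and 3 in none (human probes 41.3% and 8.41%). Under it the members' share was above that of human probes in Jurkat, and the share in no line, 7.14% of members, was below that of human probes instead of above. A raw minimum of 20 gave 28, 30, 28, 28 and 24 (57.1% to 71.4%, against 67.3% to 80.4%), with 16 in all lines and 4 in none (human probes 49.8% and 8.26%), and a minimum of 30 gave 10 in Meg-01, 11 in Jurkat and 10 in Raji (21.4% to 26.2% over the lines, against 35.9% to 46.6%). Mean plus 3 SD gave 3 in Meg-01, 4 in U937 and 3 in K562 (7.14% to 11.9%, against 13.6% to 25.2%), and the mean plus 2 SD of the virus probes 3, 5 and 3 (7.14% to 11.9%, against 14.2% to 23.9%). Leaving out the negative control that was highest in every line, an alternative chosen after seeing the data, gave 14 in Meg-01 and 7 in Raji (16.7% to 33.3%, against 34.3% to 49.2%). The other counts under these thresholds were within 1.5 times those reported. Members held 0.140%, 0.150%, 0.226%, 0.146% and 0.139% of human counts in Meg-01, Jurkat, Raji, U937 and K562 after subtraction of the threshold, and 0.402%, 0.440%, 0.581%, 0.377% and 0.275% of the deposited signal. Over 2-fold every other line, 1 member was found with housekeeping scaling and 5 with the threshold subtracted and lines at or below it entered at 1, against 52 and 149 of all human probes. The cause was not tested, except that a lower threshold passes more probes by construction. Of the 33 calls of members over the lines, 16 rest on 35 to 48 raw counts, whose intervals reach the threshold. With 1 sample per line, variation between cultures or preparations cannot be told apart from variation between lines.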

Other observations

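A stretch of at least 8 bases that is its own reverse complement was found in 6 of the 40 member probes with a sequence. In miR-1283 it was 12 bases, GAAAGCGCUUUC, and in the joint miR-526a probe 8, CUCUAGAG. These 2 probes averaged 94.0 and 67.2 raw counts over the lines, and the other 4, miR-518c, miR-518d-3p, miR-518e and miR-520a-5p, averaged 18.6, 23.8, 21.4 and 22.4. The stretch was looked for after the counts were seen, and its part in them was not tested. Correlations were taken across the 38 probes with a single sequence, which share the same 5 samples. The log2 of the mean raw count had a Pearson r of 0.18 with the length of the stretch and -0.01 with GC percentage. The mean raw count had a Spearman rho of -0.09 with the length of the stretch and 0.06 with GC percentage.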
